A study of Homo sapiens with 6 samples.

Results

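Genes of the nuclear pore and of the carriers that move proteins and RNA through it were followed in HUVECs, endothelial cells cultured from the lining of the umbilical cord vein. Genes were taken by name: the numbered nucleoporins (NUP), karyopherins (KPNA, KPNB), exportins (XPO), importins (IPO) and transportins (TNPO), with RAN, RANBP1, RANBP2, RANGAP1, RCC1, CSE1L, TPR, POM121, NDC1, SEH1L, RAE1, AAAS and NUTF2. This gave 54 of 18317 gene names in the deposited tables. One group of 3 libraries came from HUVECs transfected with hsa-miR-483 and the other group of 3 from HUVECs transfected with 8OH-G miR-483, the same microRNA carrying the oxidised base 8-hydroxyguanine, at a position the labels do not give. Both used a lipid reagent, and both were sampled on day 2. A scramble control named in the protocol was not analysed here, so a difference between the groups cannot be assigned to one form of the microRNA. The labels do not say whether replicates were separate cultures or how many donors the cells came from, and p-values cover no more than the differences among these 6 libraries, which may be technical.

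The nuclear pore complex is a ring-shaped channel in the nuclear envelope. Its scaffold is made of a Y-shaped complex and an inner ring, its central channel of proteins with phenylalanine-glycine repeats, and its faces of cytoplasmic filaments and a nuclear basket. Importins bind cargo in the cytoplasm and release it in the nucleus when they meet Ran in its GTP form, and exportins bind cargo together with Ran-GTP in the nucleus. RCC1, on chromatin, loads Ran with GTP, and RANGAP1, on the cytoplasmic side, triggers its hydrolysis, which sets the direction of transport. The same Ran and importin proteins act on spindle assembly during mitosis, and pores are assembled both in interphase and after division.

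Levels are given in FPKM, a measure of fragments that takes account of the length of the gene and the size of the library, so that levels of different genes can be compared; the unit was inferred from the size of the values. Read depth is unknown. Column totals ran from 1396538 to 1687283 FPKM, of which mitochondrial genes held 71.3% to 76.6%. All 10 endothelial markers on the list, among them CDH5 and PECAM1, had values above 1 FPKM. Their summed level was 2130 to 2161 FPKM with miR-483 and 1342 to 1584 FPKM with 8OH-G miR-483. Of the 10, 5 fell (limma, adjusted p under 0.05), against 20.5% of all genes tested. Of 6 mural and fibroblast markers found, 4 stayed under 1 FPKM in every library, and RGS5, at 712 ± 114 and 889.7 ± 109 FPKM (means here and below are given ± SD over 3 libraries), made up nearly all of their sum, which was 618 to 840.2 and 824 to 1017 FPKM. The 3 leukocyte markers found summed to 52.5 to 56.7 and 45.2 to 49.6 FPKM, most of it LAPTM5 (38.8 ± 3.22 and 40.1 ± 1.58 FPKM, not passed), while LYZ (4.03 ± 0.339 and 0.109 ± 0.0955 FPKM) and CD68 (11.9 ± 1.85 and 7.15 ± 0.760 FPKM) fell (limma, adjusted p under 0.05). The 1 epithelial marker found, KRT19, lay at 3.99 to 5.06 and 4.88 to 7.24 FPKM. Of the listed markers, 6 of 10 mural and fibroblast, 3 of 8 leukocyte, 1 of 6 epithelial and 0 of 6 erythroid markers were found. No marker found was at 0 in all libraries, and no erythroid marker was analysed here. Of the 2 mural and fibroblast markers tested, COL3A1 fell from 2.33 ± 0.0651 to 1.26 ± 0.0851 FPKM (adjusted p = 0.000329, limma). RGS5 did not pass (adjusted p = 0.0622, limma). In bulk samples, fewer cells of a type and less RNA per cell cannot be told apart, and the part of either in the results below was not tested.

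Nuclear transport genes were mostly higher in the cells given 8OH-G miR-483. The pseudogene IPO7P2, which the name rule also takes in, lay between 0.0497 and 0.146 FPKM and was not tested. The other 53 had at least 1 FPKM in all 6 libraries. Of these, 47 rose, 0 fell and 6 did not pass an adjusted p of 0.05 (limma on log2(FPKM + 1), Benjamini-Hochberg over 12712 genes). Among all genes tested, 34.9% rose and 20.5% fell (55.4% in all), while 88.7% of the 53 rose. A log2 fold change of at least 1 with a passed test was seen in 8 of the 53, against 5.33% of all genes. Tested against a fold of 1.2 in place of no change, 37 of the 53 rose and 0 fell, against 17.8% and 9.27% of all genes. At an unadjusted p under 0.05, 0 of the 53 were lower, against 2869 of all 12712 genes tested. Among genes whose mean level lay within the range of these 53, 37.3% rose. Log2 fold changes compare 8OH-G miR-483 with miR-483, on values of log2(FPKM + 1), and understate changes of low genes. Their median was 0.62 for the 53 genes and 0.09 for all genes tested. In 49 of the 53 genes, every 8OH-G miR-483 library lay above every miR-483 library, a pattern seen in 39.5% of all genes, and in 1 gene (KPNA5) every library lay below, a pattern seen in 23.7% of all genes. With median-ratio scaling, which moves the median of all genes by -0.10, 43 of the 53 were higher and 2 (IPO11 and KPNA5) lower, against 27.2% and 27.3% of all genes. Quantile normalization gave the same counts, against 27.1% and 28% of all genes.

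**Figure D1:**
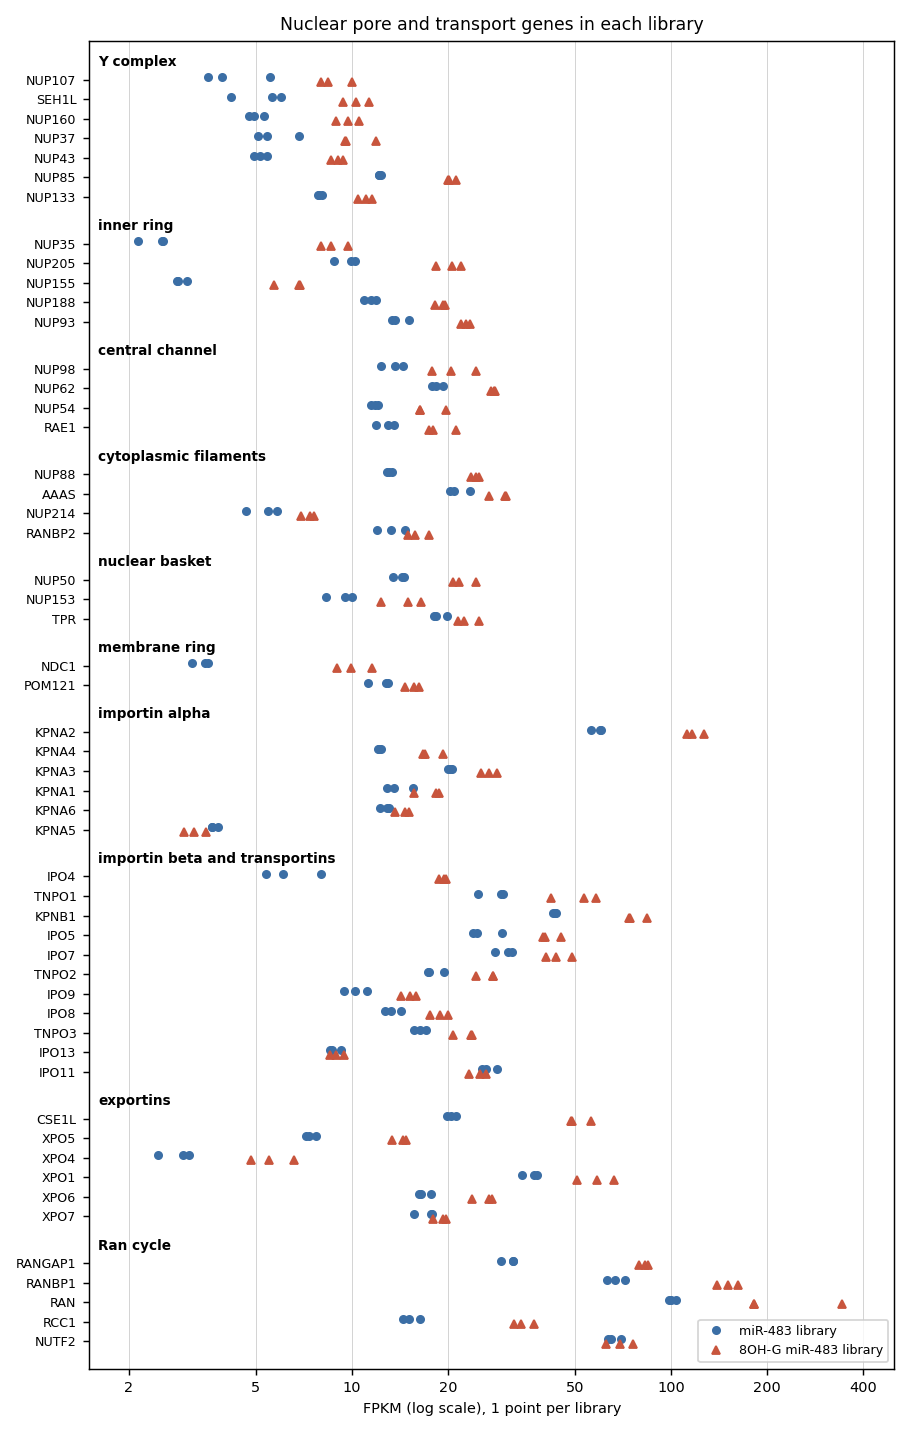
FPKM of the 53 tested genes in each library on a log axis, 1 row per gene, grouped by role; circles are miR-483 libraries and triangles 8OH-G miR-483 libraries. The triangles lie to the right of all circles in 49 rows, and RAN has 1 triangle far to the right of the other two.

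The levels spanned a wide range. With miR-483, RAN was the most abundant of the 53, at a mean of 100.5 FPKM, followed by RANBP1 (67.04), NUTF2 (65.8) and KPNA2 (58.6 FPKM). RANBP1 and NUTF2 overlapped in their libraries and could not be ordered. NUP35 had the lowest mean, with libraries that overlapped those of XPO4, at 2.41 FPKM. With 8OH-G miR-483, every RANGAP1 library was above every NUTF2 library, whereas with miR-483 every RANGAP1 library was below them. The summed level of the 53 genes was 986, 968 and 994 FPKM in the miR-483 libraries and 1775, 1608 and 1712 FPKM in the 8OH-G miR-483 libraries. Without RAN, the sums were 888, 865 and 894 FPKM with miR-483 and 1431, 1427 and 1530.4 FPKM with 8OH-G miR-483, so the groups did not overlap with or without it.

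Promoter sequences are shown for NUP35 and IPO4, the genes with the largest log2 fold changes, for KPNA2, the most abundant importin alpha, and for IPO11, which did not pass. Each runs from 250 bases before to 50 bases after the annotated start, 5′ to 3′ on the gene's strand, from RefSeq (GRCh38.p14). Capitals mark matches to 5 motifs, each searched on both strands. The E-box, CACGTG, is bound by MYC and related factors. The E2F motif searched was GGCGGGAA. The CHR, or cell cycle genes homology region, was searched as TTTGAA. The CCAAT box is bound by NF-Y, and the NRF1 motif by the factor of that name. NUP35 lies at chr2:183124193-183124492, plus strand, IPO4 at chr14:24188767-24189066, minus strand, KPNA2 at chr17:68035485-68035784, plus strand and IPO11 at chr5:62412513-62412812, plus strand.
NUP35: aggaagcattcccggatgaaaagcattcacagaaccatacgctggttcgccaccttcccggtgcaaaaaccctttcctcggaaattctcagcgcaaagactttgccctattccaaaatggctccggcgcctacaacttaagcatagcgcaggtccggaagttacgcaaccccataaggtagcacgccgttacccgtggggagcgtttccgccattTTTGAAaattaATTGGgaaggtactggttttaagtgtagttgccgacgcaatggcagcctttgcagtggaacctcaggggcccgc
IPO4: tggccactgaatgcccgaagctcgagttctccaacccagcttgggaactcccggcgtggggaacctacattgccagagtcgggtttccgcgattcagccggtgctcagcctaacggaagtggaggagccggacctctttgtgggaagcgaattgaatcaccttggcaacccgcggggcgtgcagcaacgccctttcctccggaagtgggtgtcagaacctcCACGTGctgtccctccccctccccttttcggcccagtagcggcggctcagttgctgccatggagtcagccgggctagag
KPNA2: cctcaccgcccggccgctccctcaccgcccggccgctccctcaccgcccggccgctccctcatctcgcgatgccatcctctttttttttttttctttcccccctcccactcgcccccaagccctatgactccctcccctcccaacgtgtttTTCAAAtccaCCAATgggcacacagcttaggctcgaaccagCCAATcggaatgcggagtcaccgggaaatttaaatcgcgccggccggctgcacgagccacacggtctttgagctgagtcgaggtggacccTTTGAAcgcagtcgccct
IPO11: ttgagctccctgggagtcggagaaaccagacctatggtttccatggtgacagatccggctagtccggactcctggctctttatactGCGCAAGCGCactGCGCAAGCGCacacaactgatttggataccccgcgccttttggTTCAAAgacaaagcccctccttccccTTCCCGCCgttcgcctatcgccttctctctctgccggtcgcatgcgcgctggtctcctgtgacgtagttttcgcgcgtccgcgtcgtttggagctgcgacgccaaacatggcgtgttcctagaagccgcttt

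In NUP35 the capitals are a CHR match whose first base lies at -35 from the start and a CCAAT box at -24. IPO4 has an E-box at -29. KPNA2 has CCAAT boxes at -89 and -58 and CHR matches at -99 and 33. IPO11, whose level did not pass the test, has NRF1 matches at -164 and -151, a CHR match at -108 and an E2F match at -82. Of the 54 genes, 47 had a promoter in the table. A CHR match was found in 11 of the 47 (23.4%), against 9.5% of 8839 promoters of tested genes and 15.4% of 27305 promoters in all. CCAAT was found in 20 (42.6%, against 37.1% of tested genes), the NRF1 motif in 9 (19.1% against 12.6%), the E-box in 7 (14.9% against 10.5%) and the E2F motif in 4 (8.51% against 5.31%). Over all promoters, these motifs were in 35.7%, 6.28%, 7.43% and 3.18%. The genes with an E-box match were IPO4, IPO7, KPNA3, NUP188, NUP50, RAN and TNPO2, all of them among the genes that rose, as were 43 of the 47 genes with a promoter. These are matches of letters and were not tested as binding sites.

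All 7 genes of the Y complex, the outer scaffold ring, that the name rule takes in rose, against 34.9% of all genes tested. Log2 fold changes of the 7 ran from 0.43 (NUP133) to 0.89 (NUP107). SEC13, a subunit outside the name rule, did not pass (log2 fold change -0.022, adjusted p = 0.822, limma). NUP107, a core subunit in the stem of the Y, had 5.51, 3.92 and 3.53 FPKM with miR-483 and 7.99, 8.42 and 10.02 FPKM with 8OH-G miR-483. The lowest 8OH-G miR-483 library was above the highest miR-483 library, although the miR-483 values were themselves spread (log2 fold change 0.89, SE 0.140, adjusted p = 0.000745, limma). SEH1L, a subunit shared with a complex that senses amino acids, rose 1.96-fold and NUP160 1.95-fold in mean FPKM. The small subunits NUP37 and NUP43 rose 1.80-fold and 1.74-fold. NUP85 rose from 12.2 ± 0.0805 to 20.4 ± 0.645 FPKM. NUP133, which touches the curved membrane, changed least, from 7.92 ± 0.137 to 10.99 ± 0.558 FPKM.

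The inner ring held the largest rise of all 53 genes. NUP35, which binds membrane and bridges NUP93 and NUP155, had 2.14, 2.53 and 2.57 FPKM with miR-483 and 8.02, 8.58 and 9.72 FPKM with 8OH-G miR-483. This is a 3.64-fold higher mean with no overlap between the groups (log2 fold change 1.52, SE 0.0915, adjusted p = 4.54e-06, limma). The large scaffold genes also rose. NUP205 had 10.2, 8.76 and 9.91 FPKM with miR-483 and 20.5, 18.3 and 22.01 FPKM with 8OH-G miR-483, a 2.10-fold difference in means (log2 fold change 1.00, SE 0.0889, adjusted p = 3.17e-05, limma). NUP155 had 2.86, 2.82 and 3.03 FPKM with miR-483 and 6.85, 5.70 and 6.84 FPKM with 8OH-G miR-483. Its miR-483 libraries lay close together, and each 8OH-G miR-483 library was above them (log2 fold change 0.93, SE 0.0856, adjusted p = 3.74e-05, limma). NUP188, the paralog of NUP205, rose 1.66-fold and NUP93, the anchor of the ring, 1.62-fold.

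Genes of the central channel rose by similar amounts, with log2 fold changes from 0.52 to 0.59. NUP98, whose repeats form the permeability barrier, had 13.6, 12.3 and 14.5 FPKM with miR-483 and 20.4, 17.8 and 24.5 FPKM with 8OH-G miR-483, with the widest spread of the 4 in the 8OH-G miR-483 group (log2 fold change 0.59, SE 0.115, adjusted p = 0.00252, limma). NUP62 rose from 18.5 ± 0.753 to 27.7 ± 0.470 FPKM and its channel partner NUP54 from 11.8 ± 0.288 to 17.4 ± 1.94 FPKM. RAE1, an mRNA export factor that binds NUP98, rose 1.48-fold.

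On the cytoplasmic face, NUP88 had the largest log2 fold change of the 4 genes. Its levels were 12.8, 13.3 and 13.1 FPKM with miR-483 and 24.5, 23.5 and 25.02 FPKM with 8OH-G miR-483, and the libraries of each group were close together (log2 fold change 0.85, SE 0.0613, adjusted p = 1.06e-05, limma). Its binding partner NUP214, a docking site for exportin complexes, rose 1.38-fold. AAAS, which encodes aladin, rose 1.35-fold. RANBP2, the filament protein that holds SUMO-modified RANGAP1 at the pore, went from 13.3 ± 1.36 to 16.1 ± 1.27 FPKM (adjusted p = 0.0391, limma). RANBP2 did not pass with median-ratio scaling (0.196 as adjusted p), nor on leaving out miR-483 replicate 2 (0.124) or 3 (0.0930) or 8OH-G miR-483 replicate 1 (0.0781) or 3 (0.113), nor without the filter on low values (0.0531), and it has near-identical relatives with which reads could be shared.

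In the nuclear basket, NUP50 and NUP153 rose 1.57-fold and 1.58-fold. NUP50, which helps to release importin alpha from cargo, had 14.5, 13.5 and 14.4 FPKM with miR-483 and 21.6, 20.7 and 24.4 FPKM with 8OH-G miR-483 (log2 fold change 0.62, SE 0.0774, adjusted p = 0.00021, limma). TPR, the coiled-coil protein of the basket filaments, rose less, from 18.7 ± 1.02 to 22.98 ± 1.76 FPKM (adjusted p = 0.0138, limma). TPR did not pass with median-ratio scaling (0.0947 as adjusted p), nor on leaving out miR-483 replicate 3 (0.0524). The membrane-spanning genes differed in size of change. NDC1, which anchors the pore and is needed for pore assembly, had 3.54, 3.15 and 3.46 FPKM with miR-483 and 8.997, 9.95 and 11.6 FPKM with 8OH-G miR-483, a 3.01-fold higher mean (log2 fold change 1.34, SE 0.0949, adjusted p = 9.61e-06, limma). POM121 went from 12.3 ± 0.957 to 15.5 ± 0.835 FPKM, which did not pass with median-ratio scaling (0.0562 as adjusted p), and its near-identical relative POM121C, at 11.2 ± 1.82 and 13.4 ± 0.802 FPKM, did not pass. Over the 6 pore groups, 25 of the 25 nucleoporins that the name rule takes in rose, against 34.9% of all genes tested. After median-ratio scaling or quantile normalization 22 rose, against 27.2% and 27.1% of all genes. Their median log2 fold change was 0.66, against 0.09 for all genes. Outside the name rule, SEC13 and POM121C did not pass, while NUPL1, NUPL2, AHCTF1 and TMEM33 passed as higher. Of the 16 tested pore and transport genes outside the rule, 11 passed as higher, against 34.9% of all genes tested.

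**Figure D2:**
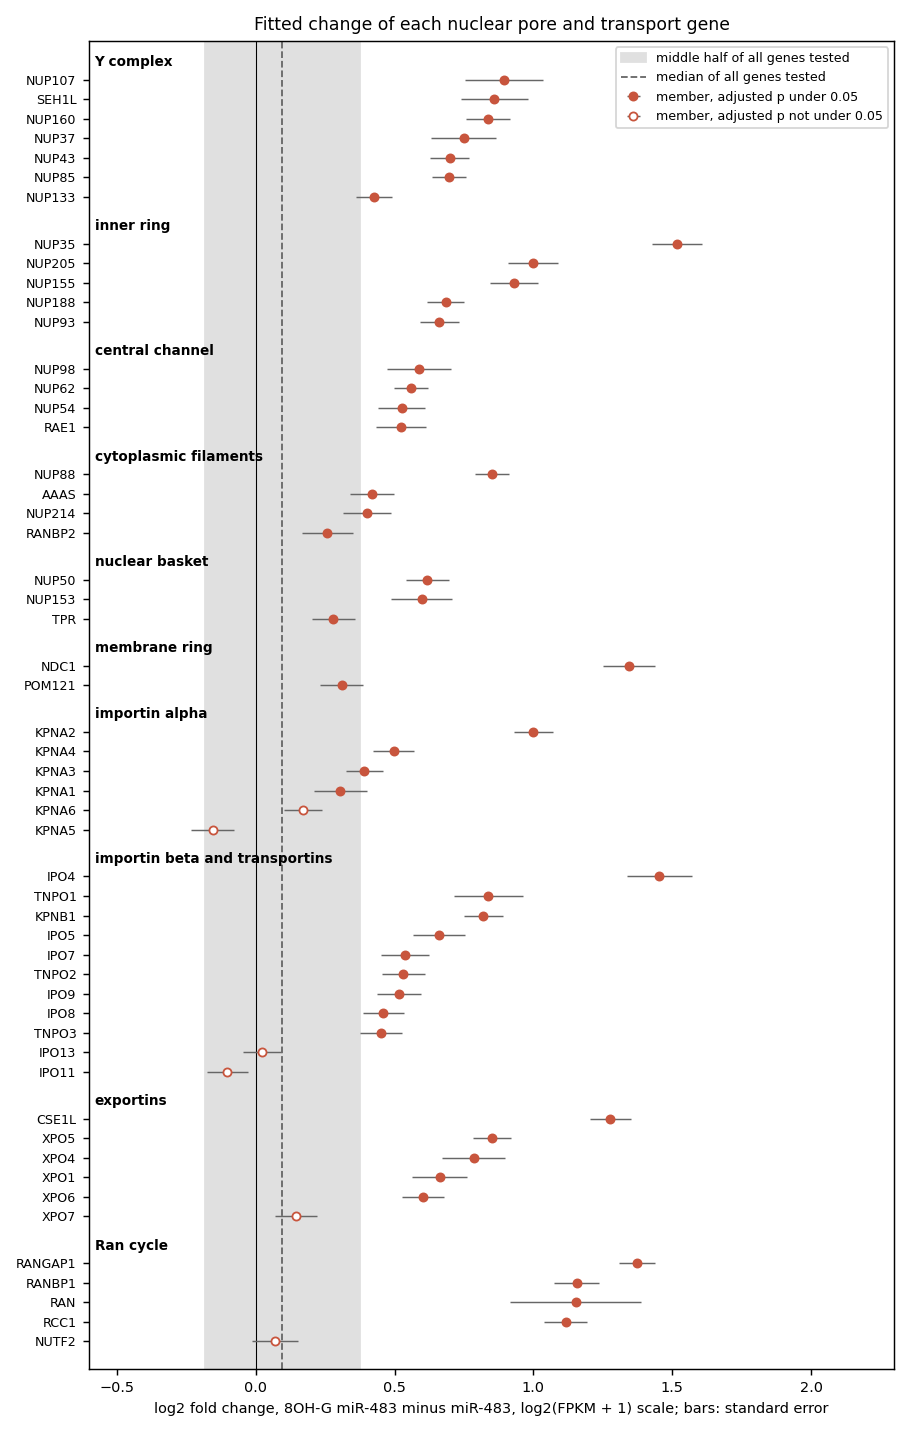
Fitted log2 fold change (8OH-G miR-483 minus miR-483, log2(FPKM + 1) scale) of each of the 53 genes with its standard error; filled points passed an adjusted p of 0.05, and the grey band is the interquartile range of all genes tested (-0.18 to 0.38). Of the filled points, 8 lie at or above a log2 fold change of 1, and the 6 open points lie inside the band.

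Importin alpha proteins read the classical nuclear localisation signal and bridge cargo to importin beta. Of the 6 genes tested, 4 rose, against 34.9% of all genes tested. With median-ratio scaling, 3 rose and 1 fell, against 27.2% and 27.3% of all genes. KPNA2 had 55.99, 60.1 and 59.8 FPKM with miR-483 and 112, 116 and 126 FPKM with 8OH-G miR-483, a 2.02-fold higher mean (log2 fold change 1.00, SE 0.0712, adjusted p = 1.00e-05, limma). KPNA3 and KPNA4, which form a subfamily, rose less. KPNA4 had 12.2, 12.1 and 12.3 FPKM with miR-483 and 16.9, 16.7 and 19.2 FPKM with 8OH-G miR-483 (log2 fold change 0.50, SE 0.0723, adjusted p = 0.000496, limma), and KPNA3 had 20.5, 20.3 and 19.9 FPKM with miR-483 and 26.8, 25.4 and 28.5 FPKM with 8OH-G miR-483 (log2 fold change 0.39, SE 0.0660, adjusted p = 0.00114, limma). The subfamily of KPNA1, KPNA5 and KPNA6 had the smallest differences. KPNA1 had 15.6, 12.9 and 13.6 FPKM with miR-483 and 18.7, 15.6 and 18.3 FPKM with 8OH-G miR-483. Its groups were separated by a narrow gap (adjusted p = 0.0236, limma), and it did not pass with median-ratio scaling (0.113) or on leaving out miR-483 replicate 2 (0.0757) or 3 (0.0743), or 8OH-G miR-483 replicate 1 (0.0843) or 3 (0.0672). KPNA6 had 13.02, 12.3 and 12.9 FPKM with miR-483 and 14.7, 13.6 and 15.1 FPKM with 8OH-G miR-483 and did not pass (adjusted p = 0.0601, limma). It passed without 8OH-G miR-483 replicate 2 (0.0421). KPNA5 had 3.81, 3.65 and 3.63 FPKM with miR-483 and 3.21, 2.97 and 3.50 FPKM with 8OH-G miR-483. It was the one gene of the 53 with every 8OH-G miR-483 library below the miR-483 libraries, with a log2 fold change of -0.15 that did not pass as deposited (adjusted p = 0.122, limma) and passed after median-ratio scaling (0.0301).

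The makeup of the importin alpha pool differed between the groups. The summed level of the 6 genes was 121, 121 and 122 FPKM with miR-483 and 192, 191 and 211 FPKM with 8OH-G miR-483. KPNA2 made up 46.2, 49.6 and 48.96% of it in the miR-483 libraries and 58.3, 61.01 and 59.9% in the 8OH-G miR-483 libraries. The share of every other importin alpha gene was lower in all 8OH-G miR-483 libraries. KPNA6 went from a mean of 10.5 ± 0.324% to 7.30 ± 0.278%, and KPNA5 from 3.05 ± 0.0924% to 1.63 ± 0.0594%. KPNA3 went from 16.7% to 13.6%, KPNA1 from 11.5% to 8.86% and KPNA4 from 10.03% to 8.90%. These shares are a description with no test, and a scaling factor per library leaves them as they are.

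**Figure D3:**
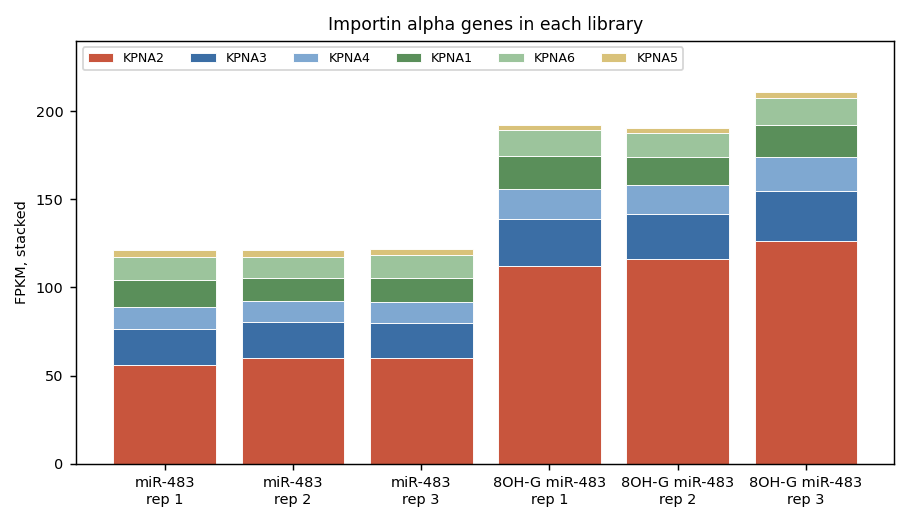
Stacked FPKM of the 6 importin alpha genes in each library. The KPNA2 segment is 55.99 to 60.1 FPKM high in the miR-483 libraries and 112 to 126 FPKM in the 8OH-G miR-483 libraries, while the segments of KPNA5 and KPNA6 keep a similar height.

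Importin beta and its relatives carry cargo through the channel. Of 11 tested, 9 rose, against 34.9% of all genes tested, and IPO11 and IPO13 did not pass. The largest rise was that of IPO4, which imports histones H3 and H4, with 6.06, 5.39 and 7.98 FPKM with miR-483 and 18.7, 19.8 and 19.4 FPKM with 8OH-G miR-483 (log2 fold change 1.45, SE 0.118, adjusted p = 1.92e-05, limma). The mean was 2.98-fold higher, and the lowest 8OH-G miR-483 library was far above the highest miR-483 library. KPNB1, importin beta itself, rose from 43.2 ± 0.465 to 77.1 ± 5.64 FPKM (1.79-fold). TNPO1, transportin 1, which imports hnRNP proteins, rose from 27.9 ± 2.73 to 51.04 ± 8.31 FPKM, and TNPO2, its close paralog, 1.47-fold. IPO5 and IPO7, both of which import ribosomal proteins, rose 1.60-fold and 1.47-fold. IPO8, the paralog of IPO7, rose 1.40-fold, IPO9 1.47-fold and TNPO3, which imports SR splicing factors, 1.39-fold. IPO11, an importer of ubiquitin-conjugating enzymes, had 26.2, 28.5 and 25.5 FPKM with miR-483 and 23.2, 25.1 and 26.2 FPKM with 8OH-G miR-483. Its groups overlapped (adjusted p = 0.269, limma), and it passed as lower after median-ratio scaling (log2 fold change -0.21, adjusted p = 0.0400). IPO13, which works in both directions, had 8.81 ± 0.348 and 8.96 ± 0.467 FPKM in the groups, and the sign of its difference, 0.02 as deposited, turned to -0.0786 after median-ratio scaling.

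Of 6 exportins, 5 rose, against 34.9% of all genes tested. CSE1L, the exportin that returns importin alpha to the cytoplasm, had 20.4, 19.8 and 21.1 FPKM with miR-483 and 48.5, 48.7 and 55.9 FPKM with 8OH-G miR-483, a 2.50-fold higher mean (log2 fold change 1.28, SE 0.0747, adjusted p = 3.91e-06, limma). The ratio of KPNA2 to CSE1L in FPKM was 2.75, 3.03 and 2.83 with miR-483 and 2.31, 2.39 and 2.26 with 8OH-G miR-483, lower in each of the latter. XPO1, the main exportin for proteins with leucine-rich signals, rose from 36.4 ± 2.14 to 58.4 ± 7.69 FPKM. XPO5, which exports precursor microRNAs and is thus part of the pathway that makes microRNAs, rose from 7.42 ± 0.275 to 14.2 ± 0.749 FPKM. XPO4 and XPO6, the exporter of actin, rose 1.99-fold and 1.55-fold. XPO7 was at 17.02 ± 1.24 and 18.9 ± 0.901 FPKM and did not pass (adjusted p = 0.133, limma), although its lowest 8OH-G miR-483 library was just above the highest miR-483 library.

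Of 5 Ran cycle genes tested, 4 rose, against 34.9% of all genes tested. The median log2 fold change of the 5, at 1.15, was the highest of the 10 role groups. This median is the value of RAN, which was 0.85 without 8OH-G miR-483 replicate 1. RANGAP1, the GTPase activator, had 29.3, 31.9 and 32.03 FPKM with miR-483 and 79.1, 84.3 and 82.6 FPKM with 8OH-G miR-483, a 2.64-fold higher mean with little spread (log2 fold change 1.37, SE 0.0659, adjusted p = 1.73e-06, limma). RCC1, the exchange factor at the other end of the cycle, had 15.1, 14.4 and 16.3 FPKM with miR-483 and 32.1, 37.05 and 33.7 FPKM with 8OH-G miR-483 (2.24-fold, log2 fold change 1.12, SE 0.0779, adjusted p = 9.13e-06, limma). The ratio of RANGAP1 to RCC1 was 1.94, 2.21 and 1.96 with miR-483 and 2.46, 2.27 and 2.45 with 8OH-G miR-483, so the groups were close and did not overlap. RANBP1, which helps RANGAP1 to act on Ran leaving the pore, had 62.9, 71.5 and 66.7 FPKM with miR-483 and 139, 162 and 151 FPKM with 8OH-G miR-483 (2.25-fold, log2 fold change 1.16, SE 0.0820, adjusted p = 9.86e-06, limma).

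RAN, the GTPase, had 98.2, 103 and 99.9 FPKM with miR-483 and 343, 181 and 182 FPKM with 8OH-G miR-483. Replicate 1 of 8OH-G miR-483 stood apart from the other two, which lay close together, and it did not stand apart in RANBP1 or RANGAP1, where it was the lowest of its group. With all libraries the mean was 2.34-fold higher (log2 fold change 1.15, SE 0.237, adjusted p = 0.00488, limma). Without that library it was 1.81-fold higher (log2 fold change 0.85, SE 0.0765, adjusted p = 0.000151, limma), so the change held and its size fell. RAN has processed copies elsewhere in the genome, and reads shared with those copies would make its level uncertain. NUTF2, which returns Ran-GDP to the nucleus, had 64.6, 69.4 and 63.3 FPKM with miR-483 and 68.98, 76.1 and 62.6 FPKM with 8OH-G miR-483. Its groups overlapped (adjusted p = 0.505, limma), and its log2 fold change of 0.07 turned to -0.0404 after median-ratio scaling. The ratio of RAN to NUTF2 was 1.52, 1.49 and 1.58 with miR-483 and 4.98, 2.38 and 2.90 with 8OH-G miR-483.

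**Figure D4:**
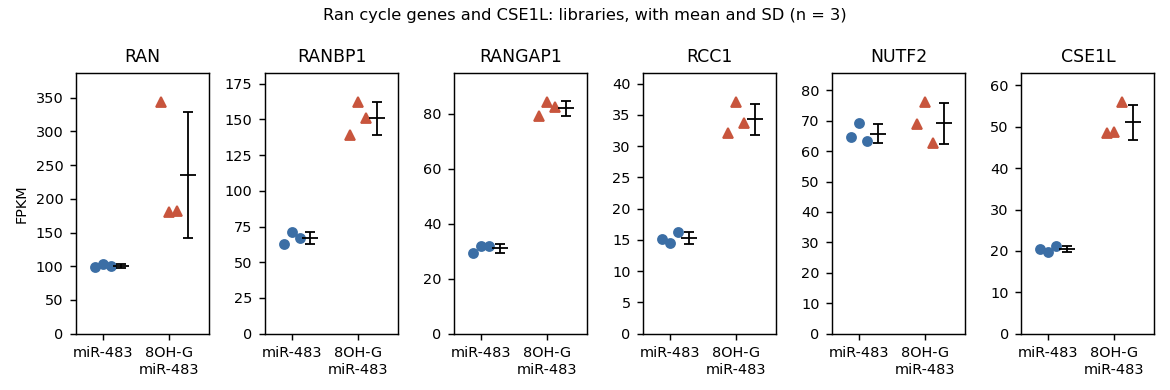
FPKM of the Ran cycle genes and CSE1L in each library, with mean and SD (n = 3) in black beside the points; each panel has its own axis from 0. RAN replicate 1 of 8OH-G miR-483 lies at 343 FPKM, above the other two at 181 and 182 FPKM, and NUTF2 is the panel in which the groups overlap.

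The levels of the 53 genes also varied between libraries of a group. In 37 of the 53 genes, 8OH-G miR-483 replicate 3 was the highest of its group (69.8%, against 35.7% of all genes tested), and 8OH-G miR-483 replicate 2 was the lowest in 32 (60.4% against 34.2%). Within the miR-483 group, replicate 2 was the lowest in 37 genes (69.8% against 37%). The highest place in that group was shared by replicates 1 and 3, with 22 genes each. Another gene with its own row overlaps 17 of the 54 in the RefSeq gene table, among them SNHG3 at RCC1, TRMT2A at RANBP1, ZC3H7B at RANGAP1 and REC8 at IPO4. Over all libraries, SH3GLB2 had a higher mean than NUP188, which it overlaps (36.3 against 15.2 FPKM). The same was true of POLR1C at XPO5 (14.1 against 10.8 FPKM). RABEP1 at NUP88 had a mean of 16.0 against 18.7 FPKM. Whether the authors' counting used strand is not given in the sources used here. Levels at these genes are uncertain to that extent.

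Other genes of the pathway were taken from 3 further lists. Of 16 tested pore and transport genes outside the name rule, 11 passed as higher and 0 as lower, with a median log2 fold change of 0.47. With median-ratio scaling, the counts were 9 and 0. Of all genes tested, 34.9% passed as higher and 20.5% as lower, and with median-ratio scaling 27.2% and 27.3%. The 3 with the largest changes were TMEM33, a membrane protein of the reticulum and pore (11.1 ± 1.18 to 24.6 ± 8.66 FPKM, with an adjusted p of 0.0611 on leaving out 8OH-G miR-483 replicate 2, which does not pass), NUPL1, the channel nucleoporin that partners NUP62 and NUP54 (8.59 ± 0.649 to 16.1 ± 1.54 FPKM), and NCBP1, the large subunit of the nuclear cap-binding complex (9.99 ± 0.267 to 17.95 ± 1.002 FPKM). SEC13, a Y complex subunit that also coats secretory vesicles, was at 128 ± 5.82 and 126 ± 8.81 FPKM and did not pass (adjusted p = 0.822, limma). Of 22 mRNA export genes, 14 (63.6%) passed as higher and 0 as lower, against 34.9% and 20.5% of all genes, with a median of 0.39. With median-ratio scaling, the counts were 12 and 1. The 3 with the largest changes were the helicase gene DDX39A (29.8 ± 1.48 to 62.3 ± 1.22 FPKM), its export partner ALYREF (35.9 ± 3.33 to 63.8 ± 3.08 FPKM) and THOC6, a subunit of the THO complex (10.4 ± 1.13 to 18.3 ± 1.27 FPKM). NXF1, the export receptor for bulk mRNA, was at 26.2 ± 0.863 and 23.9 ± 1.01 FPKM and did not pass (adjusted p = 0.125, limma). Every 8OH-G miR-483 library of NXF1 lay below every miR-483 library. This held for 1 of the 22 genes and for 23.7% of all genes tested. At an unadjusted p under 0.05, 0 genes were lower in either list, against 2869 of all 12712 genes tested. SEC13 and NXF1 were picked after their values were seen.

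The nuclear envelope holds the pores in place. Of 17 of its lamina, inner membrane and LINC complex genes, 6 rose and 6 fell (6 and 7 after quantile normalization), and the median log2 fold change was 0.03. That is 35.3% in each direction, and the higher share is near the 34.9% of all genes that rose, while 20.5% of all genes fell. LMNB1 and LMNB2, the B-type lamins, rose from 9.47 ± 0.398 to 36.6 ± 2.73 FPKM and from 20.1 ± 1.36 to 50.6 ± 2.39 FPKM. TMPO, which encodes lamina-associated polypeptide 2, rose from 15.9 ± 0.965 to 37.9 ± 4.88 FPKM. SUN1, the LINC complex protein reported to associate with pores, fell from 59.1 ± 1.48 to 27.5 ± 0.440 FPKM, as did LMNA (from 314 ± 8.23 to 208 ± 22.2 FPKM), and both were picked after their values were seen.

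Proliferation genes were also higher in the cells given 8OH-G miR-483. All 10 on the list rose, against 34.9% of all genes tested. Their median log2 fold change was 2.01, against 0.09 for all genes. Their summed level was 90.5 to 99.4 FPKM with miR-483 and 355 to 419 FPKM with 8OH-G miR-483. The 3 largest changes were those of MCM2, a helicase subunit loaded for DNA replication (2.14 ± 0.143 to 18.6 ± 1.36 FPKM), the mitotic kinase CDK1 (6.15 ± 0.285 to 33.7 ± 2.54 FPKM) and cyclin B1, CCNB1 (8.996 ± 0.412 to 46.7 ± 7.20 FPKM). The part of proliferation in the changes of the transport genes was not tested.

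**Figure D5:**
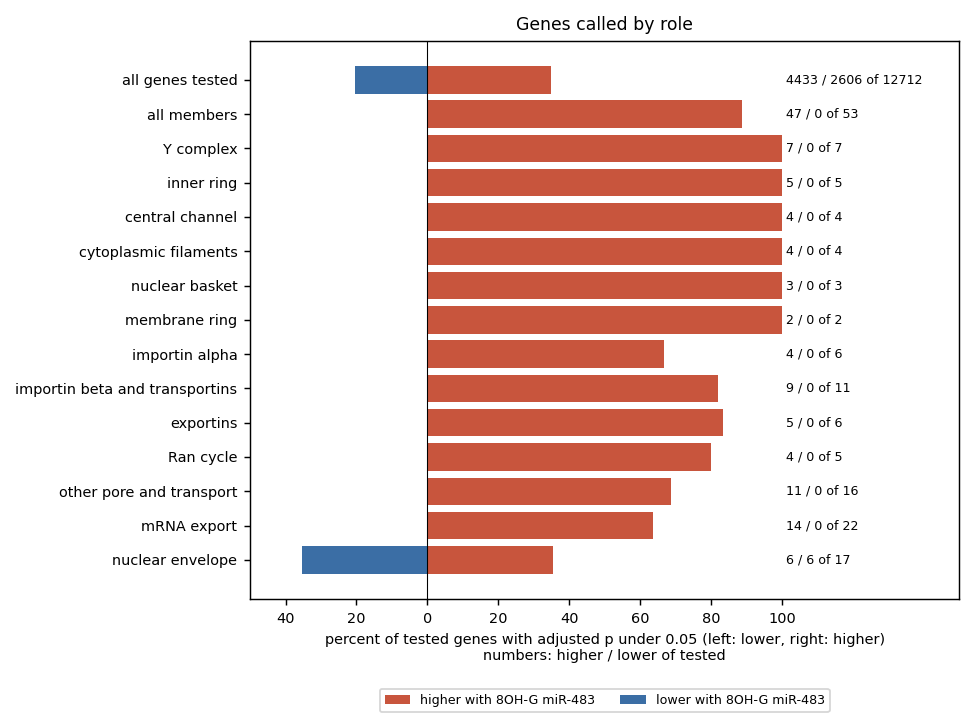
Percent of tested genes that passed an adjusted p of 0.05 in each role group, higher to the right and lower to the left, with counts of higher and lower genes of those tested at the right. All genes tested show 34.9% to the right and 20.5% to the left, the 6 pore groups 100% to the right, and the nuclear envelope list equal bars.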

How the data were processed

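RNA sequencing values of 6 libraries, 3 per group, were used. The deposited tables hold 1 column of decimal values for 20792 rows, taken as FPKM computed by the authors; the unit is inferred from the values, since neither labels nor headers name it. Cutadapt, STAR, HTSeq, DESeq2 and hg19 are named, without versions, per the submitters' processing notes. Low values were searched for steps of 1 read: at the best of 200 trial depths, 28.3% of 865 weakly expressed genes fitted (tolerance 0.05 log2; median trial 26.4%), so no counts were recovered and depth is unknown.

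Of the names, 744 were repeated and took their highest value per library; no transport gene was among them. A further 24 rows had names turned into dates and were left out. The fit took the 12712 genes that reached 1 FPKM in 3 or more libraries. limma (version 3.58.1, R 4.3.3) was run on log2(FPKM + 1) by group, using trended, robust variance shrinkage, two-sided tests and Benjamini-Hochberg adjustment at 0.05. The script was tested on simulated data. N-fold values are ratios of mean FPKM. Figures were drawn with matplotlib 3.10.9.

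All libraries are given for the 12 genes with the largest changes, the largest change of each role group and all importin alpha and Ran cycle genes, and the 3 largest of each further list are named. The genes and lists were chosen with earlier results of these data known. Motifs were searched in RefSeq promoters. Alternatives covered pseudocounts, filters, repeated names, scalings, a replicate block, a fold threshold of 1.2, plain shrinkage and each library left out. Seed matches of miR-483 and counts of FG repeats, both planned, were not analysed here.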

Additional observations from a re-analysis of the deposited data

How the results depend on the processing

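Of 848 combinations of a tested transport gene with 1 of 16 alternatives, 810 kept direction and side of the threshold, 28 lost the call, 6 gained one and 4 changed sign. Of the 47 genes that rose, 37 passed as higher under all 16 alternatives; the exceptions were KPNA1, RANBP2, TPR and POM121, named with the results, and AAAS, IPO8, KPNA3, NUP133, NUP214 and TNPO3, which were lost only with the fold threshold of 1.2. The sign changes were those of IPO13, from 0.02 to -0.0786 (median-ratio scaling) and -0.120 (quantile normalization), with a range of -0.0138 (without 8OH-G miR-483 replicate 1) to 0.0532 over single libraries left out, and of NUTF2, to -0.0404 (median-ratio scaling), none of which passed. Over all genes, the median change on the log2 scale turned from 0.09 to -0.0024 with median-ratio scaling and to -0.010 with quantile normalization. That of the transport genes was 0.49 with a pseudocount of 5, 0.51 with median-ratio scaling and 0.52 with quantile normalization; the lower value with a pseudocount of 5 follows from its construction. Each scaling gave 2 lower transport genes. The fold threshold of 1.2 left 3436 of all genes (2257 higher, 1179 lower), and 37 transport genes, all higher, against 17.8% of all genes higher. With 1 library left out at a time, 44 to 48 transport genes passed, against 47 with all libraries. With all libraries, 55.4% of all genes tested passed in either direction, and that share in the left-out fits is not given here. Over the same left-out libraries, the difference in the KPNA2 share of importin alpha ran from 10.5 to 12.2 percentage points.

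The replicate numbers were not treated as pairs. The deviations of same-numbered libraries correlated at 0.0171, 0.332 and 0.0118, and those of differently numbered libraries at -0.239 to 0.220. These values do not settle whether the numbers mark pairs. With a replicate block, 48 transport genes were higher, against 47 without it (KPNA6 in addition, adjusted p = 0.0395, limma). Of all genes, 7594 passed in either direction, against 7039 without the block. Not every library correlated best with its own number. The unknown read depth limits what can be said of low genes such as IPO7P2.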
